A study of Mus musculus with 90 samples.

Results

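Tryptophan breakdown and NAD synthesis were followed through 10 enzyme genes (Tdo2, Afmid, Kmo, Kynu, Haao, Acmsd, Qprt, Nampt, Naprt, and Nadsyn1) in mouse liver. The genes were chosen by symbol, and of the RefSeq IDs of a symbol the ID with the highest mean level was used, so that the set makes up 10 of 24312 gene symbols. The kynurenine pathway opens the ring of tryptophan and carries its carbon either to quinolinate, from which NAD is made, or to full oxidation. The liver holds most of the body's capacity for this pathway, and Tdo2 is a textbook target of glucocorticoids there. NAD is also rebuilt from nicotinamide and from nicotinic acid, and these routes meet the kynurenine route at the last steps.

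RNA was measured in 54 livers of single mice, all trained to night-restricted feeding (NRF), in 5 experiments that were fitted apart. In the NRF experiment, wild-type male C57BL/6N mice of 10 weeks were killed at zeitgeber time (ZT) 10 without food, later still unfed at ZT14 (ZT14-unfed), or at that hour after food was given at lights off (ZT14-fed) (n = 2 each, ribosome-depleted RNA). The other libraries were poly(A) enriched. Injected wild-type C57BL/6N mice of 10 weeks were taken at ZT14 as unfed vehicle (PBS), fed vehicle, fed dexamethasone (dex, 1 mg/kg, a synthetic glucocorticoid), fed S961 (an insulin receptor antagonist), or fed dex plus S961 (n = 4 each). The S961 dose is 44 in units that differ between the labels and the methods. L-GRKO mice were adult Nr3c1 fl/fl mice on C57BL/6N given AAV-CRE under the liver-specific Tbg promoter about 2 weeks before NRF, and their controls, also Nr3c1 fl/fl, received AAV-GFP (n = 4 each, unfed at ZT14). L-IRSdKO mice carried Irs1 fl/fl, Irs2 fl/fl, and Alb-Cre on C57BL/6J, and the controls carried the floxed alleles without Cre. Both of these groups were 10 weeks old, were given 1 mg/kg dex, and were fed at ZT14 (n = 4 each). Diet-induced obese (DIO) C57BL/6 males had 10 weeks of high-fat diet and lean males 10 weeks of chow, both from 5 weeks of age and followed by 4 days of NRF, and were unfed or fed at ZT14 (n = 3 each).

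Levels are RPKM, read counts scaled to gene length and to library depth. Changes are differences of group means of log2(RPKM + 0.5), tested with limma over all genes whose mean reached 0.5 RPKM and adjusted by Benjamini-Hochberg (BH). A gene was called at an adjusted p under 0.01 in the NRF experiment and under 0.05 elsewhere. Each library is described as a single mouse, and p-values measure the spread between those mice. Relative depth within an experiment, estimated from the steps of low values, differed by up to 2.08-fold. Read totals that the paper lists for the obesity experiment differ by more than this, so the estimate can be too low. In bulk liver, fewer cells of a type and less RNA per cell cannot be told apart.

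The L-IRSdKO libraries, controls included, stood apart from the other experiments. The summed level of 6 hepatocyte markers was 2252 to 2824 RPKM in these 8 libraries and 29134 to 75651 RPKM in the other 46. Albumin lay at 650 to 914 RPKM there and at 18853 RPKM or more in the other experiments, whereas the hepatocyte factor Hnf4a was not lower (232 to 249 RPKM, against 80.0 to 231 RPKM). Levels are therefore compared within an experiment. In the injected mice, replicate 4 of each group belongs to a second library series by its library name. It was the lowest library of its group for Kmo in 5 of 5 groups and the highest for Qprt in 5 of 5, and values with the series as a term are given beside the pooled ones.

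Peaks of the glucocorticoid receptor (GR) and FOXO1, a factor that insulin keeps out of the nucleus, were called in unfed livers at ZT14. Sequences of 4 peaks are shown, 2 GR peaks in Acmsd, whose level varied most, and the peaks with the GR palindrome near Haao and Tdo2, which were called. GR peaks near Afmid and Naprt also hold the palindrome and are not shown, though Naprt was called as well. All are mm9 and read 5′ to 3′ on the strand of the gene. Capitals mark matches on either strand to GNACA and TGTNC set 3 bases apart (the GR palindrome), TGTTCT (its half-site, which the palindrome can contain in part), or TGTTTAC (a forkhead site). The lines give, in order, the first and the next GR peak in the Acmsd intron (chr1:129627789-129627968 and chr1:129629200-129629379), a GR peak in the Haao intron (chr17:84233323-84233502), and a GR peak in an intron of Ctso, beyond Tdo2 (chr3:81742857-81743036).
Acmsd GR peak, first: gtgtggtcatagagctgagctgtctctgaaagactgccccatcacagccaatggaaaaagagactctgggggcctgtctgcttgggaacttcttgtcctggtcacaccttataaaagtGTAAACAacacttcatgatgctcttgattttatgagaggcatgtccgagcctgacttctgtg
Acmsd GR peak, next: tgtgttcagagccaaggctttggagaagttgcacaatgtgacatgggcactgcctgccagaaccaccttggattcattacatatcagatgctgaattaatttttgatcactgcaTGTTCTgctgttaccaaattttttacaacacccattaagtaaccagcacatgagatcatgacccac
Haao GR peak: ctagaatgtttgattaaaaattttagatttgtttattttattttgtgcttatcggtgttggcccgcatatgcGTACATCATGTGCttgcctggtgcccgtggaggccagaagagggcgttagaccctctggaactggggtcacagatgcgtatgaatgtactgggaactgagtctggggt
Tdo2 GR peak: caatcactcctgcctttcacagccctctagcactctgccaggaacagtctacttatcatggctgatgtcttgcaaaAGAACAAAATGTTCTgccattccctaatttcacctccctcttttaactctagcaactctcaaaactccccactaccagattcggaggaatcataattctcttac

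The start of Acmsd was surrounded by 3 GR and 4 FOXO1 peaks within 50 kb. The first GR peak, 1889 bases into the gene, overlapped a FOXO1 peak and holds a forkhead match, whereas the next, 3300 bases in, overlapped another FOXO1 peak and holds a half-site. Tdo2, at chr3:81761012-81780124, had 7 GR peaks, more than 95.8% of the genes expressed at a mean of 20 RPKM or higher, and 4 FOXO1 peaks. A GR and a FOXO1 peak overlapped 172 and 199 bases before the RefSeq start of Tdo2, in sequence that GENCODE counts as exon. The peak 37177 bases downstream of the GENCODE start carries a palindrome.

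Peaks reached the other members at different distances. At Kmo, GR and FOXO1 peaks lay 15 and 10 bases before the RefSeq start, and at Qprt a GR peak lay 85 bases after it. Kynu had a FOXO1 peak 780 bases after its GENCODE start. Haao held both GR peaks in its intron, 10526 and 12717 bases in, of which the second has the palindrome. Nampt had 1 GR and 1 FOXO1 peak, both more than 49 kb upstream, and Nadsyn1 had 1 GR peak and no FOXO1 peak. In all, 29 GR and 22 FOXO1 peaks lay within 50 kb of the 10 starts, and 15 of the 22 overlapped a GR peak by at least 1 base. Under a stricter rule for the part of the FOXO1 peak covered, 12 of the 22 did. The share over all FOXO1 peaks was not computed here, and the paper reports GR at most FOXO1 sites of the genome.

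All 10 starts had GR or FOXO1 binding inside 50 kb, a share to be read against 44.08% of all 22173 placed genes and 77.49% of the 2315 at a mean of 20 RPKM or higher. Inside 20 kb 8 of the 10 had such binding, against 27.33% and 63.15% of these genes. Inside 100 kb all 10 did, against 60.2% and 87.73%. The palindrome was in 4 of the 29 GR peaks near the 10 genes (Afmid, Haao, Naprt, and Tdo2, 1 each), 14 of the 29 held the half-site, and 1 the forkhead letters. Of the 22 FOXO1 peaks, 1 held the palindrome, 6 the half-site, and 4 the forkhead letters. The palindrome was found in 7.802% of the 10446 GR peaks, 3.253% of the 8546 FOXO1 peaks, and 0.5611% of the 83592 DNase-accessible sites (DHSs). The half-site was found in 27.67%, 19.49%, and 14.28% of these lists, and the forkhead letters in 7.295%, 18.82%, and 4.36%. These matches are descriptions of letters and do not show which factor bound. The plot of peak distances gives all GR and FOXO1 peaks within 50 kb.

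**Figure D1:**
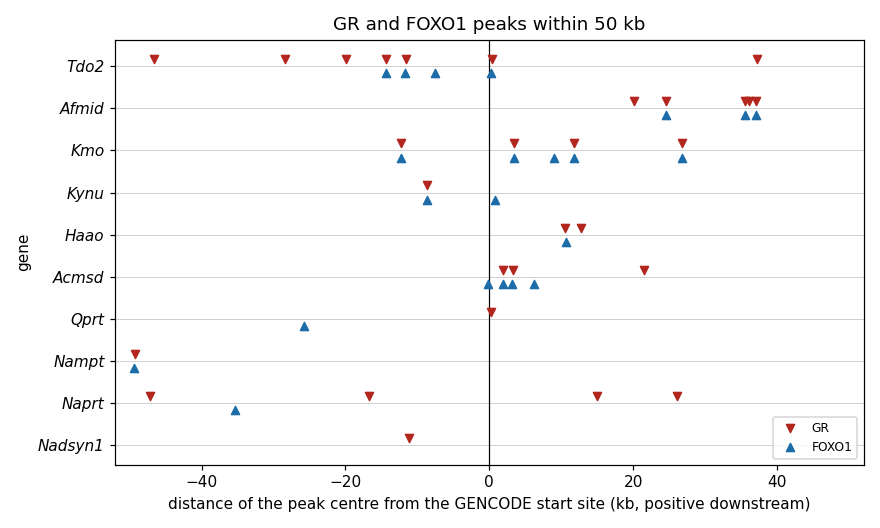
GR (red) and FOXO1 (blue) peaks within 50 kb of the start of each gene; the x axis is the distance of the peak centre from the GENCODE start in kb, positive in the direction of transcription. Acmsd has 4 FOXO1 and 3 GR peaks, whereas the nearest peaks of Nampt are more than 49 kb upstream.

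All 10 genes were expressed in every library. Tdo2, which opens the ring of tryptophan, had the highest mean of the 10 in each experiment, from 388 RPKM in the L-IRSdKO experiment to 1467 RPKM in the injected mice. Haao, which makes the precursor of quinolinate, and Kmo, which hydroxylates kynurenine, followed in each experiment, with pooled means over the 54 libraries of 208 and 128 RPKM. Nadsyn1, which makes NAD from its acid form, was the lowest of the 10 in each experiment (6.32 to 12.5 RPKM). Between these lay Qprt, which converts quinolinate to a nicotinic acid nucleotide, Afmid, the formamidase after Tdo2, Kynu, which cleaves 3-hydroxykynurenine, Nampt, which salvages nicotinamide, Naprt, which salvages nicotinic acid, and Acmsd, which turns the Haao product away from quinolinate, in an order that changed between experiments. Acmsd was the 9th of 10 in 4 experiments (means of 13.2 to 19.0 RPKM) and the 7th in the L-IRSdKO experiment (63.7 RPKM). The ratio of the highest to the lowest library was largest for Acmsd in each experiment, from 2.78 in NRF to 8.98 in the obesity experiment, where it ran from 3.38 to 30.4 RPKM.

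**Figure D2:**
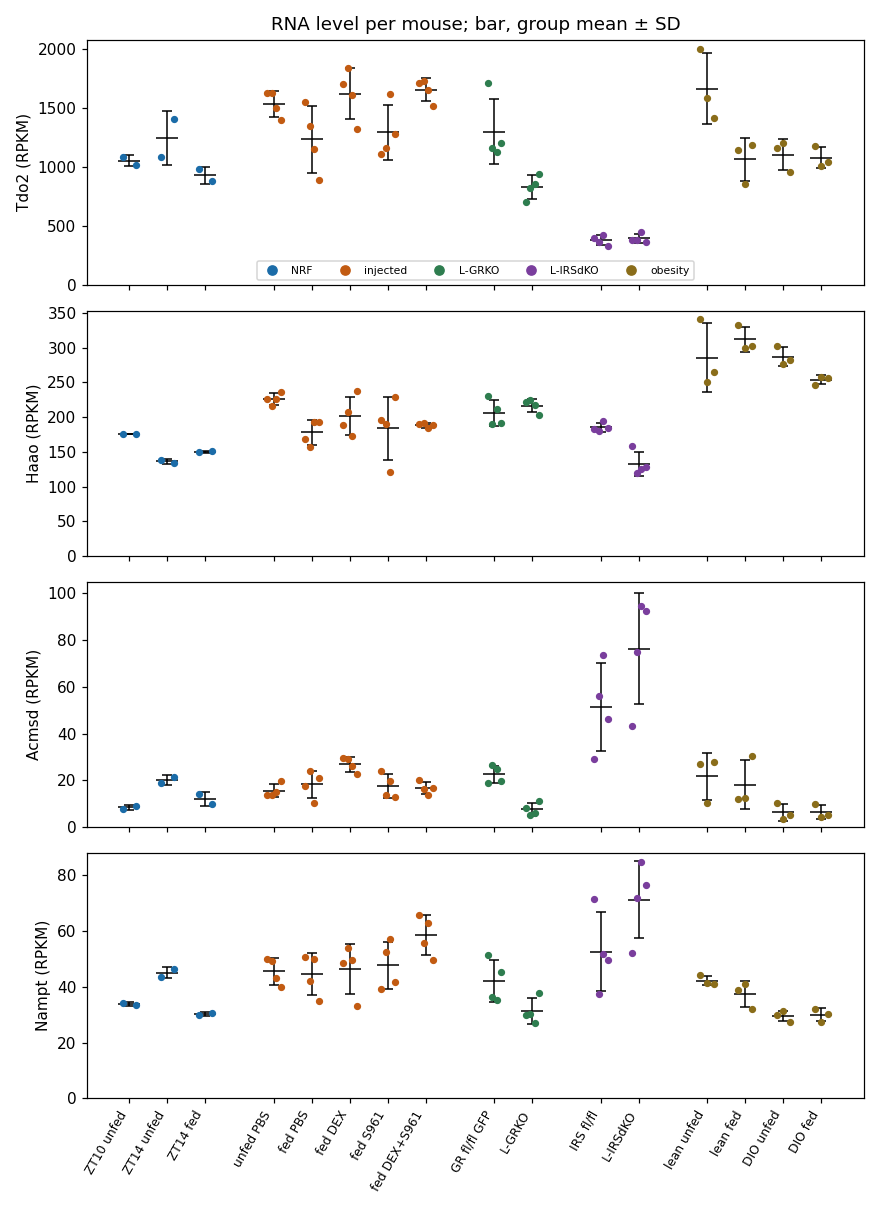
RNA level of Tdo2, Haao, Acmsd, and Nampt in RPKM (y axes, from 0) in each mouse (points) of the 16 groups (x axis); bars give the group mean and SD and colours the experiment. Acmsd is lower in each L-GRKO mouse than in each GFP control, and Tdo2 sits between 331 and 450 RPKM in the 8 libraries of the L-IRSdKO experiment.

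Loss of hepatic GR asked what GR contributes before the meal. The targeted gene Nr3c1 was at 3.93, 4.23, 4.14, and 5.35 RPKM in the L-GRKO mice and at 12.8 to 16.2 RPKM in the GFP controls, below each control (log2 change -1.58, BH-adjusted p = 0.0001 by limma). Of the 10 genes, 2 fell and 0 rose, against 6.68% of all genes called and 2.23% called lower. In these 2 the groups did not overlap, as was so for 12.8% of all genes. Acmsd was at 8.38, 5.05, 6.11, and 11.1 RPKM in L-GRKO livers and at 19.0, 26.7, 24.7, and 19.9 RPKM in controls. Acmsd fell by 1.54 on the log2 scale (SE 0.21, limma adjusted p = 0.0023). Tdo2 was at 701, 826, 854, and 943 RPKM in L-GRKO livers and at 1710, 1165, 1125, and 1199 RPKM in controls. It fell by 0.63 (SE 0.15, limma adjusted p = 0.032).

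The Tdo2 call was close to the threshold. It was lost when any of 6 of the 8 libraries was left out (GFP replicates 1, 2, and 4 and CRE replicates 1, 2, and 3), with adjusted p from 0.0506 to 0.0925, and the Acmsd call held without each of the 8. Qprt, which acts on quinolinate beyond the Acmsd branch point, was at 77.4 ± 10.0 RPKM (SD, n = 4) in L-GRKO livers and 87.0 ± 6.63 RPKM in controls. Its log2 change was -0.17 (95% interval -0.41 to 0.06, limma adjusted p = 0.41). Haao, with a GR palindrome in its intron, was not called, at 216 ± 9.47 RPKM in L-GRKO livers and 206 ± 19.2 RPKM in controls. Nampt was at 31.3 ± 4.61 and 42.0 ± 7.61 RPKM (log2 change -0.42, limma adjusted p = 0.12), and passed the threshold with median-ratio scaling (adjusted p = 0.041).

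Other NAD genes changed beside them. Nnmt, which methylates nicotinamide, was at 47.1 RPKM in L-GRKO livers and 138 RPKM in controls and fell by 1.58 (limma adjusted p = 0.0031), as 1 of 13 tested genes that use or consume NAD and its precursors. Nmrk1, the nicotinamide riboside kinase, rose by 0.55 (limma adjusted p = 0.028; 1 of 5 tested salvage genes). Nadk2, the mitochondrial NAD kinase, rose by 0.48 (limma adjusted p = 0.011), as 1 of 7 tested genes of NADP and repair. Hadh, 1 of 9 tested side-branch genes, rose by 0.58 (limma adjusted p = 0.030). These counts are to be read against the 6.68% of all genes called. Among markers of other cells, all 3 red blood cell markers rose, with a summed level of 331 to 623 RPKM in L-GRKO livers and 223 to 289 RPKM in controls, 1 of 5 stellate cell and fibroblast markers rose (summed level 46.8 to 68.5 against 33.4 to 50.9 RPKM), and the part of these in the changes above was not tested. No hepatocyte marker of 6 was called.

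**Figure D3:**
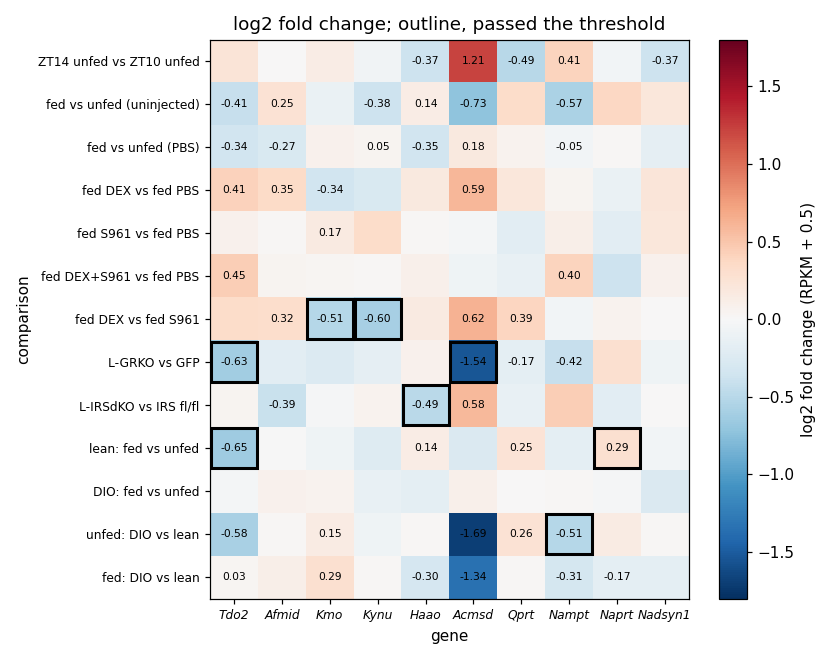
Log2 fold change (colour scale and, for values followed in the text, numbers) of the 10 genes (x axis) in 13 comparisons (y axis); outlined cells passed the threshold of limma. Outlines lie at Acmsd and Tdo2 in L-GRKO, Haao in L-IRSdKO, Kmo and Kynu for dex against S961, Tdo2 and Naprt for the lean meal, and Nampt for unfed DIO against lean.

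Unfed livers were compared between ZT10 and ZT14, where time of day, lights off, and hours without food cannot be told apart. With limma 0 of the 10 genes passed 0.01, against 1.17% of all genes. An unadjusted p under 0.05 was found for 5 of the 10 and for 2907 of all 11003 genes tested. Acmsd was nearest, at 7.78 and 9.13 RPKM at ZT10 and 18.8 and 21.6 RPKM at ZT14-unfed (log2 change 1.21, SE 0.17, limma adjusted p = 0.011). Its call appeared under a filter at a mean of 2 RPKM (adjusted p = 0.0048) and with every RefSeq ID as a feature (0.0086). Nampt went from 34.3 and 33.4 to 43.7 and 46.4 RPKM (log2 change 0.41, limma adjusted p = 0.033), and Haao from 176 and 176 to 139 and 134 RPKM (log2 change -0.37, limma adjusted p = 0.035). Of the other pathway genes, 1 was called: Nmnat3, a mitochondrial adenylyltransferase, fell by 1.27 (limma adjusted p = 0.0084) at a level of 1.72 RPKM at ZT10.

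The meal in uninjected mice shares the ZT14-unfed livers with that comparison. Again 0 of 10 genes passed limma's 0.01, against 1% of all genes. At an unadjusted p under 0.05 were 6 of the 10 and 3045 of all 11003 genes tested. Nampt was at 29.8 and 30.7 RPKM in fed and 43.7 and 46.4 RPKM in unfed livers (log2 change -0.57, SE 0.09, limma adjusted p = 0.016). It passed with median-ratio scaling (adjusted p = 0.0071) and with the filter at 2 RPKM (0.0098). Acmsd was at 14.2 and 10.1 RPKM in fed livers (log2 change -0.73, limma adjusted p = 0.050), and Kynu at 40.0 and 34.8 against 45.1 and 52.4 RPKM (log2 change -0.38, limma adjusted p = 0.088). In the 10 genes fed and unfed mice did not overlap, as was so for 59.7% of all genes with 2 mice in each group.

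In the diet experiment, the meal was tested in lean mice with 3 livers in each group. Of the 10 genes 1 rose and 1 fell, against 23.4% of all genes called, 16.1% higher and 7.25% lower. Groups did not overlap in 4 of the 10 and in 43.3% of all genes. Tdo2 was at 1146, 859, and 1185 RPKM in fed and 1994, 1583, and 1415 RPKM in unfed lean livers. The groups were apart, and Tdo2 fell by 0.65 (SE 0.16, limma adjusted p = 0.016), a call that was lost without fed lean replicate 2 (adjusted p = 0.063). Naprt was at 48.5, 42.3, and 46.2 RPKM in fed and 37.7, 37.3, and 36.5 RPKM in unfed livers and rose by 0.29 (SE 0.09, limma adjusted p = 0.031). This call was lost with median-ratio scaling (adjusted p = 0.14) and without any of 5 libraries (unfed lean replicates 1, 2, and 3 and fed lean replicates 1 and 3, adjusted p from 0.0545 to 0.112). Qprt (log2 change 0.25, limma adjusted p = 0.05003) fell just outside the threshold.

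The calls among other NAD genes are to be read against the 23.4% of all genes called, and 0 of 4 tested uptake and entry genes and 0 of 5 salvage genes passed. Slc25a51, which carries NAD into mitochondria, fell by 1.17 (42.8 to 18.5 RPKM, limma adjusted p = 0.0010), and Nudt12, an NADH hydrolase, by 0.49, as 2 of 7 tested genes of NADP and repair. Among 13 tested consumers, Sirt1 and Cd38, which both cleave NAD, fell by 0.77 and 0.35, and Sirt7 rose by 0.50, and of 9 tested side-branch genes Dhtkd1 fell by 0.42. Endothelial markers moved with the meal: 4 of 5 fell, with a summed level of 39.3 to 46.3 RPKM in fed and 54.4 to 65.6 RPKM in unfed lean livers, and their part in these changes was not tested.

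Obesity was compared before the meal with the same unfed lean mice. Of the 10 genes 1 fell and 0 rose, against 5.26% of all genes called and 1.7% called lower, and groups did not overlap in 3 of the 10 and in 22.9% of all genes. Nampt was at 29.8, 31.3, and 27.5 RPKM in unfed DIO livers and at 44.2, 41.4, and 41.1 RPKM in unfed lean livers. It fell by 0.51 (SE 0.10, limma adjusted p = 0.018) with no overlap, and lost the call without DIO replicate 3 (adjusted p = 0.057), without lean replicate 1 (0.062), and when the 2 groups were fitted alone (0.081). Acmsd was at 10.4, 3.38, and 5.40 RPKM in DIO and 27.1, 10.3, and 27.7 RPKM in lean livers. The groups overlapped at 10.3 to 10.4 RPKM, and the log2 change of -1.69 had a wide error (SE 0.50, 95% interval -2.79 to -0.60, limma adjusted p = 0.076). Without DIO replicate 1 the Acmsd change passed (adjusted p = 0.026), as it did with the replicate number as a block (0.041).

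Tdo2 was at 1157, 1202, and 958 RPKM in unfed DIO livers, below each unfed lean liver (log2 change -0.58, limma adjusted p = 0.063; 0.048 with median-ratio scaling). Elsewhere Ido2, a further tryptophan-opening enzyme, rose by 0.65 (1 of 4 tested uptake and entry genes), Sirt4 rose by 0.49, Cd38 fell by 0.52, and Slc25a51 fell by 1.02 (limma adjusted p = 0.028, 0.020, 0.029, and 0.0091). Sirt4 and Cd38 were 2 of 13 tested consumers, and Slc25a51 was 1 of 7 tested genes of NADP and repair. Endothelial markers were again lower, 4 of 5 by call, with sums of 30.9 to 39.3 RPKM in DIO livers and 54.4 to 65.6 RPKM in lean ones, 1 of 6 hepatocyte markers fell as well, and their part in the Nampt change was not tested.

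After the meal, 0 of 10 genes differed between DIO and lean livers by limma, against 0.494% of all genes. At an unadjusted p under 0.05 were 3 of the 10 and 2310 of all 11541 genes tested. Acmsd was at 9.89, 4.50, and 5.36 RPKM in fed DIO and 11.9, 12.3, and 30.4 RPKM in fed lean livers (log2 change -1.34, SE 0.50, limma adjusted p = 0.18). Nampt was at 32.2, 27.4, and 30.2 against 39.0, 40.9, and 32.2 RPKM (log2 change -0.31, limma adjusted p = 0.14). Tdo2 means were 1077 and 1064 RPKM (log2 change 0.03, 95% interval -0.33 to 0.39). Kmo and Haao had log2 changes of 0.29 and -0.30. Both passed when the compared groups were fitted alone (limma adjusted p = 0.047 and 0.046), a fit without a computed share over all genes.

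The meal in DIO livers called 0 of 10 genes with limma, against 7.66% of all genes. At an unadjusted p under 0.05 were 1 of the 10 and 2901 of all 11541 genes tested. Whether the meal acted unlike in DIO and lean mice was tested as an interaction, which called 0 of 10 genes, against 0.745% of all genes. Here 2 of the 10 and 1735 of all 11541 genes had an unadjusted p under 0.05. For Tdo2 the DIO meal change minus the lean one was 0.61 (95% interval 0.11 to 1.11, limma adjusted p = 0.25). For Naprt this difference was -0.31 (95% interval -0.58 to -0.05, limma adjusted p = 0.26). Tdo2, which fell with the lean meal, had means of 1077 RPKM in fed and 1106 RPKM in unfed DIO livers. Naprt, which rose with the lean meal, had means of 40.5 and 41.3 RPKM in the same groups.

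In injected mice, the meal, dex, and S961 were compared with the same fed vehicle livers, or with each other. The meal under vehicle called 0 of 10 genes (3.12% of all genes), with 3 at an unadjusted p under 0.05, as were 2189 of all 11353 genes. Its log2 changes were 0.18 for Acmsd, 0.05 for Kynu, and -0.05 for Nampt, where the uninjected meal gave -0.73, -0.38, and -0.57. For Haao and Afmid they were -0.35 and -0.27, against 0.14 and 0.25 in the uninjected meal, and for Tdo2 -0.34 and -0.41. Library preparation and injection differ between these experiments, and the difference was not tested. Dex against fed vehicle called 0 (3.19%), S961 called 0 (1.92%), and dex plus S961 called 0 (10.6%). At an unadjusted p under 0.05 by limma were 5, 1, and 3 of the 10, against 2104, 1616, and 2923 of all 11353 genes. Dex plus S961 against unfed vehicle called 0 (2.32%), S961 on top of dex 0 (2.95%), and dex on top of S961 0 (1.86%). At an unadjusted p under 0.05 were 2, 6, and 2 of the 10, against 1335, 1783, and 1370 of all 11353 genes. Non-additivity of both agents called 0 of 10 genes and 0% of all genes, with 1 of the 10 and 515 of all 11353 genes at an unadjusted p under 0.05.

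Dex and S961 livers compared directly differed in 2 of 10 genes, both lower with dex, against 7.43% of all genes called and 4.62% called lower. The same 2 had groups that did not overlap, as did 10.8% of all genes. Kmo was at 120, 116, 119, and 98.4 RPKM with dex and at 170, 174, 172, and 132 RPKM with S961. The log2 change from S961 to dex was -0.51 (SE 0.12, limma adjusted p = 0.013; 5.5e-06 with the library series as a term). Kynu was at 41.0, 49.6, 47.4, and 49.5 RPKM with dex and at 67.1, 63.5, 95.8, and 62.0 RPKM with S961 (log2 change -0.60, SE 0.12, limma adjusted p = 0.0046; 0.0024 with the series term). Both calls held without each library and in replicates 1 to 3 alone (adjusted p = 9.2e-05 and 0.0059), and both were lost when those groups were fitted alone (0.072 and 0.075). Between dex and S961, 1 endothelial marker of 5 was called higher and 1 lower (sums 50.1 to 62.6 and 54.6 to 62.5 RPKM), and 1 of 4 tested stellate cell and fibroblast markers higher (61.3 to 86.6 and 51.9 to 87.0 RPKM), and their part was not tested.

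Kupffer cell and macrophage markers ranged highest in fed vehicle livers, with sums of 69.8 to 103 RPKM against 43.0 to 73.7 RPKM in the other 16 injected livers. Of these 6 markers 2 rose with the meal, and 1, 2, and 3 were lower with dex, S961, and both than in fed vehicle. Endothelial markers (2 of 5) were also lower with dex than in fed vehicle (sums 50.1 to 62.6 and 60.5 to 71.2 RPKM), and the part of these in the comparisons with fed vehicle was not tested.

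Relative to fed vehicle, the Kmo change with dex was -0.34 (SE 0.12, limma adjusted p = 0.13) and with S961 0.17. Vehicle livers held 149, 155, 152, and 121 RPKM of Kmo, and dex livers 98.4 to 120 RPKM. With the library series as a term calls rose over all genes, to 9.75% for dex, 19.5% for dex plus S961, 6.54% for S961 on top of dex, and 12.7% for dex against S961. Under this term the dex change of Kmo passed (adjusted p = 0.00087), as did Afmid (log2 change 0.35, 0.019) and Tdo2 (log2 change 0.41, 0.047). Under the same term, Tdo2 and Nampt passed for dex plus S961 against vehicle (log2 change 0.45 and 0.40, adjusted p = 0.018 and 0.016), and Kmo and Afmid for S961 on top of dex (log2 change 0.38 and -0.30, adjusted p = 0.00043 and 0.046). Afmid and Qprt then passed for dex against S961 (log2 change 0.32 and 0.39, adjusted p = 0.019 and 0.014).

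Acmsd in dex livers was at 29.4, 29.1, 26.2, and 22.7 RPKM and in fed vehicle livers at 17.6, 23.9, 10.6, and 21.1 RPKM (log2 change 0.59, 95% interval 0.14 to 1.05, limma adjusted p = 0.15). With dex plus S961 it was at 20.2, 16.5, 13.7, and 16.5 RPKM (log2 change -0.67 against dex, limma adjusted p = 0.12). Of 9 tested side-branch genes, only Kyat1, a kynurenine aminotransferase that leads to kynurenate, was called for dex. It rose by 0.55 over vehicle (limma adjusted p = 0.023), by 0.71 on top of S961 (0.0042), and by 0.94 against S961 (0.0001). Nmrk1, as 1 of 5 tested salvage genes, was lower with dex than with S961 by a log2 change of -0.82 (limma adjusted p = 0.023). Slc7a5, a tryptophan carrier, and the deacetylase Sirt7 were lower with S961 than with vehicle (log2 change -0.67 and -0.42, limma adjusted p = 0.029 and 0.046). They were 1 of 4 tested uptake and entry genes and 1 of 13 tested consumers. With both agents Slc7a5 and Sirt7 were lower again (log2 change -0.74 and -0.44, limma adjusted p = 0.0051 and 0.011), as was Parp1 (-0.39, 0.0072). Slc25a51, the mitochondrial NAD carrier, was higher (0.55, 0.0027). Called with both agents were 1 of 4 uptake and entry genes, 2 of 13 consumers, and 1 of 7 genes of NADP and repair. In the meal under vehicle Aox3 rose by 0.75 and Slc25a51 had a log2 change of -0.41 (limma adjusted p = 0.019 and 0.038). They were 1 of 13 tested consumers and 1 of 7 tested genes of NADP and repair.

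Loss of Irs1 and Irs2, which pass on the insulin signal, was tested in fed mice that all received dex. Irs1 was at 0.149 to 0.321 RPKM in L-IRSdKO livers and at 2.21 to 4.73 RPKM in controls, and fell by 2.66 (limma adjusted p = 0.0009). Irs2 was at 0.272, 1.00, 0.932, and 0.886 RPKM and at 0.614, 1.63, 5.61, and 0.929 RPKM, so that its groups overlapped. Of the 10 genes 1 fell and 0 rose, against 17.4% of all genes called and 8.36% called lower, and groups did not overlap in 1 of the 10 and in 21.7% of all genes. Haao was at 158, 119, 125, and 128 RPKM in L-IRSdKO livers and at 182, 180, 194, and 184 RPKM in controls. The groups were apart, and Haao fell by 0.49 (SE 0.09, limma adjusted p = 0.0088), a call that held in each of the 15 alternatives run (adjusted p from 0.00025 to 0.032).

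Acmsd in L-IRSdKO livers was at 43.2, 74.6, 94.6, and 92.4 RPKM and in controls at 29.0, 56.1, 73.6, and 46.4 RPKM (log2 change 0.58, 95% interval -0.13 to 1.29, limma adjusted p = 0.24). Other pathway genes changed more. The aldehyde oxidases Aox3 and Aox1, which oxidise methylated nicotinamide to pyridones, fell by 1.66 and 1.44 (limma adjusted p = 0.0004 and 0.0042), in 14 tested consumers of which 2 rose and 4 fell. Ido2 fell by 1.15 and Slc7a5 rose by 1.87 (limma adjusted p = 0.013 and 0.0044), as 2 of 5 tested uptake and entry genes. Of 9 tested side-branch genes 2 were called. These were Aadat and Kyat1, both kynurenine aminotransferases, with log2 changes of -0.59 and -0.64 (0.033 and 0.038). Of 5 tested salvage genes Pnp and Nt5e, which cleave nucleosides and nucleotides, rose by 0.63 and 0.82 (0.0069 and 0.011). Endothelial markers rose in 3 of 5 cases and summed to 108 to 143 RPKM in L-IRSdKO livers and 88.9 to 116 RPKM in controls. Kupffer cell and macrophage markers summed to 259 to 329 and 149 to 275 RPKM, with 1 of 6 called higher. Of 4 tested stellate cell and fibroblast markers 1 rose, and 1 of 6 hepatocyte and 1 of 3 tested cholangiocyte markers fell. Red blood cell markers summed to 58.7 to 85.85 and 85.92 to 148 RPKM, with 1 of 3 called lower and 2 changes above 0. The part of any of these in the Haao change was not tested.

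Acmsd and Qprt act on opposite branches, and their ratio is given as a description, as the mean over mice of log2((Acmsd + 0.5)/(Qprt + 0.5)). The ratio was -3.30 ± 0.41 (SD, n = 4) in L-GRKO livers and -1.93 ± 0.32 in GFP controls, with no mouse of one group in the range of the other. In unfed DIO livers it was -3.70 ± 0.72 (n = 3) and in fed DIO livers -3.62 ± 0.49, and in unfed and fed lean livers -1.75 ± 0.71 and -2.26 ± 0.78. In uninjected NRF mice the unfed livers moved from -2.57 ± 0.30 (n = 2) at ZT10 to -0.87 ± 0.36 at ZT14, and fed livers stood at -1.94 ± 0.42. In injected mice the group means lay between -1.74 and -1.22, and in the L-IRSdKO experiment at -0.16 ± 0.48 and -0.88 ± 0.56 for knockout and control.

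**Figure D4:**
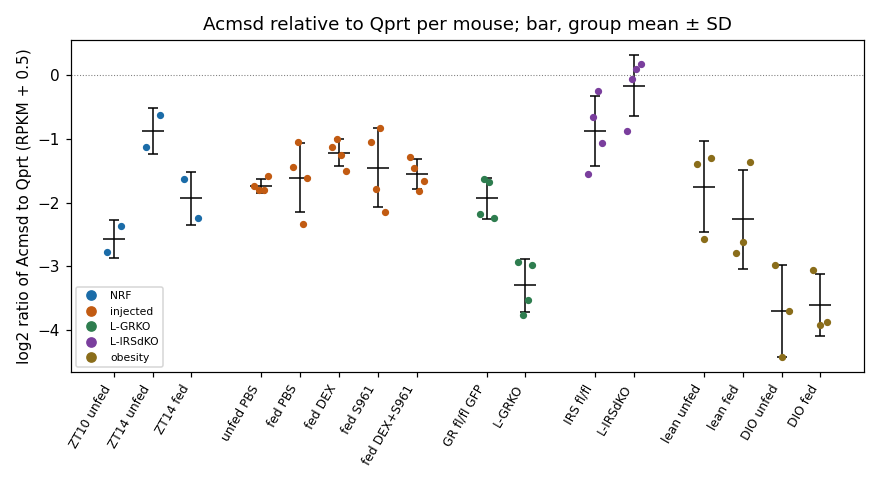
Log2 ratio of Acmsd to Qprt (y axis, each as RPKM + 0.5) in each mouse (points) of the 16 groups (x axis), with the group mean and SD (bars) and the experiment (colour); the dotted line marks equal levels. L-GRKO and DIO livers sit lowest within their experiments, with means of -3.30, -3.70, and -3.62.

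Across the 18 comparisons Acmsd spanned the widest log2 changes, from -1.69 to 1.21, and Afmid, Qprt, and Nadsyn1 were called in 0. Over the 48 poly(A) libraries, centred in each experiment, levels of Tdo2 and Nampt had the highest correlation of the 45 pairs of members (r = 0.62) and Tdo2 and Naprt the lowest (r = -0.41). The genes most like Tdo2 were Sult1d1, Pptc7, and Fam107a (r = 0.86, 0.79, and 0.78), and those most like Nampt were Rab3gap1, Snx10, and Pole4 (r = 0.81, 0.75, and 0.73), out of 11105 genes. These r are descriptions, since libraries share treatments, depth, and, in injected mice, a library series. Replicate 4, of the second series, was the lowest library for Tdo2 in 4 of 5 injected groups and for Nampt in 4 of 5. The part of the series in the r of these 2 genes was not tested.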

How the data were processed

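The authors prepared RNA by ribosomal depletion (NRF) or poly(A) enrichment, aligned reads to mm9 with STAR, and deposited RPKM values for 35707 RefSeq IDs, of which 35407 had a symbol. They called regulated genes with DESeq2, whose results were not used. RPKM leaves in the effect of a few very abundant transcripts, and reads per library were not analysed here. Peaks, called by the authors with HOMER and kept where replicates concurred, are positions without score, so no stricter threshold could be set.

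Here, log2(RPKM + 0.5) was fitted with limma 3.58.1 in R 4.3.3 for each experiment with its groups in a single model and the trend option, and the pipeline was tested on simulated data. Other tables were made with Python 3.11.15, numpy 2.4.6, and pandas 2.3.3. Starts came from GENCODE M1 on mm9, and for 8 genes also from an exact match of the RefSeq promoter sequence of GRCm38.p6. Motif and exon matches were made on mm9. The sequence of 1 peak is not reported here. Near-copies were sought with blastn 2.17.0: 16.9% of the Nampt transcript matched chromosome 14 at 96.8% identity, and its reads could be split. Shorter parts of Acmsd (9.55%), Qprt (8.24%), and Kmo (6.45%) had 2301, 63853, and 548 matches elsewhere, at best identities of 96.0%, 98.2%, and 94.1%. Exons of Afmid overlap Syngr2 on the same strand (3.62% of exon bases) and Tk1 on the opposite strand (2.21%).

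Members and gene lists were chosen with earlier results of these data known. Text names the 10 members, Nr3c1, Irs1, and Irs2, up to 4 called genes per pathway list and comparison by size, and the 3 genes most like Tdo2 and Nampt. Alternatives were another pseudocount, filter, scaling, ID choice, group set, library series term, replicate block, and each library left out. Replicate numbers are not stated to pair animals, but in injected mice number 4 marks the second library series.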

Additional observations from a re-analysis of the deposited data

Results flagged for a closer look

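In groups of 4 mice, 10 of 90 combinations of gene and group had a library far from the other 3 (Dixon's ratio above 0.829), where chance gives about 1 in 20. Kmo was lowest in replicate 4 of fed S961 (132 RPKM, next 170), of fed dex plus S961 (131, next 153), and of unfed vehicle (108, next 145). In fed dex plus S961, replicate 4 was also highest for Afmid (69.8 RPKM, next 53.1) and lowest for Naprt (15.5, next 20.04). These 5 values are all from the second library series.

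Kynu was highest in fed S961 replicate 3 (95.8 RPKM, next 67.1). In GFP replicate 1 of the L-GRKO experiment Tdo2 (1710 RPKM, next 1199) and Afmid (74.2, next 61.9) were highest. In L-IRSdKO replicate 1 Afmid was highest (94.0 RPKM, next 62.4) and Kynu lowest (58.8, next 78.5).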

How the results depend on the processing

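With 2 to 4 mice in a group, changes smaller than their intervals could not be seen, and calls near a threshold moved. The Acmsd call in L-GRKO and the Haao call in L-IRSdKO livers held in the 15 alternatives run for each, whereas Tdo2 in L-GRKO held in 7 of 15, Tdo2 and Naprt after the lean meal in 13 and 8 of 14, Nampt in unfed DIO livers in 11 of 14, and Kmo and Kynu for dex against S961 in 17 of 18 each. Other pseudocounts (0.1 and 1) moved no count of called genes by over 1.5 times.

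Of the 10 genes, 1 was called in L-GRKO without a filter. With the filter at 2 RPKM 1 was called for time and 1 for the uninjected meal, and with every RefSeq ID 1 for time. Median-ratio scaling called 1 for the uninjected meal (1.05% of all genes), 2 for dex plus S961 against vehicle (6.82%), and 1 for S961 on top of dex (3.21%). This scaling also called 1 for the lean meal (20.6%) and 2 in unfed DIO livers (4.06%). It removed a shift of the median of all genes of 0.12 (uninjected meal), 0.10 (vehicle meal), and -0.14 (dex plus S961), and turned the calls over all genes from 304 up and 895 down to 451 and 323 for dex plus S961, from 1859 and 837 to 1183 and 1192 for the lean meal, from 524 and 262 to 293 and 370 in L-GRKO, and from 411 and 196 to 215 and 253 in unfed DIO livers. Fitted as compared groups alone, 1 was called for S961 on top of dex, 0 for dex against S961, 0 in unfed DIO, and 2 in fed DIO livers. The share of all genes called was not computed for compared groups alone, the changed filters, or every RefSeq ID. Those counts therefore cannot be set against a change over all genes. With the library series as a term 3 were called for dex, 2 for dex plus S961, 2 for S961 on top of dex, and 4 for dex against S961, against 9.75%, 19.5%, 6.54%, and 12.7% of all genes. In replicates 1 to 3 alone, an alternative added after seeing the data, these were 2 for dex, 2 for S961 on top of dex, and 4 for dex against S961, against 7.31%, 4.55%, and 10.2% of all genes. The cause was not tested.

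Deviations of same-numbered libraries correlated from -0.12 to 0.61 in injected mice and from -0.20 to 0.21 elsewhere, with a median of 0.14 in injected mice against -0.053 for other numbers. Not every pair exceeded 0.1, so the fit without the block was kept as the reported one, but number 4 of the injected groups shares a library series. With the replicate block 2 genes were called for dex, 2 for dex plus S961, 1 for S961 on top of dex, 4 for dex against S961, 1 in L-GRKO, 2 in L-IRSdKO, and 2 in unfed DIO livers, against 8.59%, 18%, 5.98%, 12.1%, 5.31%, 11%, and 3.69% of all genes in the same order.

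With each library left out in turn, the count was 0 to 1 for dex plus S961, 1 to 2 in L-GRKO, 1 to 2 in L-IRSdKO, 0 to 3 in unfed DIO livers, and 1 to 2 for the lean meal. Shares of all genes called were not computed for these fits. The Tdo2 change in fed DIO livers lay between -0.12 and 0.11 and the log2 ratio of Acmsd to Qprt in L-IRSdKO livers between -0.28 and 0.076, crossing 0. The Nampt change in the vehicle meal lay between -0.12 and 0.062 and was 0.0026 in replicates 1 to 3. Median-ratio scaling turned Kynu in the vehicle meal to -0.062 and Haao in the uninjected meal to -0.0034. Alternatives were followed for 58 of 180 changes, a choice made after seeing the data. Of the other 122, 54 changed sign in some alternative, and none of those 54 exceeded 0.159 in size. Peak lists carry no score, so no stricter peak threshold was run.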
